A study of Mus musculus with 6 samples.

Results

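The cytosolic ribosomal protein genes of mouse embryonic fibroblasts (MEFs) were described after treatment with vehicle or with 1 of 2 small molecules that act on mitofusins. Members were the genes of the raw count table with a large subunit (Rpl), small subunit (Rps), stalk (Rplp) or Rpsa symbol, plus the paralogs with an l, al, l1, a or x suffix, and at least 10 counts in every library. Of 55291 listed genes, 87 had such a symbol and 82 passed the count minimum, 51 of the large subunit and 31 of the small subunit. The 5 that did not pass were Rpl10l, Rpl39l and Rps4l, with 0 counts in all 6 libraries, Rpl3l with 1 to 3 counts and Rps12l1 with 1 to 6 counts. The members nearest the minimum were Rpl32l with 30 to 40 counts and Rpl6l with 47 to 78 counts, and the next was Rpl24 with 356 to 554 counts.

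Each cytosolic ribosome carries a single copy of nearly every ribosomal protein, so that the proteins of both subunits have to be made in matched amounts. The small subunit decodes the mRNA and the large subunit joins the amino acids, while the stalk proteins of the large subunit recruit the translation factors. Most ribosomal protein mRNAs start with a run of C and T bases, the 5′ terminal oligopyrimidine (TOP) tract, through which mTORC1 signalling controls their translation more than their amount. A few members have a paralog from another gene, and the genome also holds many processed copies of these short and abundant mRNAs.

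RNA-seq libraries of polyA RNA had been made from WT MEFs, cells of mouse embryos grown in culture, in 3 groups of 2 independent biological replicates. The groups were vehicle, MASM7, an activator of the fusion activity of mitofusins, at 1 μM for 6 h, and MFI8, an inhibitor of that activity, at 20 μM for 6 h. The doses and times were taken from the legends of the study, how long vehicle was applied is not given in the sources used here, and the compound and its dose cannot be told apart. The libraries held 22791792 to 30677751 counts, and the 8 fibroblast markers examined, 1 of them under 1 TPM everywhere, summed to 5416 to 6959 TPM (a level corrected for gene length and library size). Epithelial markers summed to 1.03 to 1.69 TPM, endothelial markers to 0.112 to 0.428 TPM, erythroid markers to at most 0.386 TPM and leukocyte markers to 9.002 to 11.9 TPM. The leukocyte sum came almost wholly from Cd68 (8.91 to 11.9 TPM), while 2 of the 3 leukocyte markers were under 1 TPM everywhere. In these bulk libraries fewer cells of a type and less RNA per cell cannot be told apart.

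The sequence around the transcription start is shown for the members with the smallest unadjusted p of a comparison below (Rps15, Rps15a and Rpl31) and for both genes of the paralog pairs Rps27/Rps27l and Rpl36a/Rpl36al. Each line gives the 40 bases before and the 20 bases after a start listed by RefSeq on GRCm38.p6, on the strand of the gene, and runs of 8 or more C or T bases are in capitals.
Rps15, chr10:80292391-80292450, plus strand: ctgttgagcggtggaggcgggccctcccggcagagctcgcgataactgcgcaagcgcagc
Rps15a, chr7:118116128-118116187, minus strand: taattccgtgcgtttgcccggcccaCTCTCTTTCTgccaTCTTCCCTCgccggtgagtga
Rpl31, chr1:39367811-39367870, plus strand: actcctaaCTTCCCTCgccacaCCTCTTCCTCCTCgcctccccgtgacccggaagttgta
Rps27, chr3:90213629-90213688, minus strand: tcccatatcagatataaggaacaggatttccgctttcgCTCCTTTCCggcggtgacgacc
Rps27l, chr9:66946046-66946105, plus strand: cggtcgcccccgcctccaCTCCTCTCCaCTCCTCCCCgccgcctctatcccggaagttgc
Rpl36a, chrX:134585614-134585673, plus strand: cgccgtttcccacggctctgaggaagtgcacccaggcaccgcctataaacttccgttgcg
Rpl36al, chr12:69184048-69184107, minus strand: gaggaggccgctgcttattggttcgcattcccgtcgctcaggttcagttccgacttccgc
In Rps27 and Rps15a a run spans the listed start, whereas Rps15, Rpl36a and Rpl36al held no run of that length in these windows. Rps15, Rpl36a and Rpl36al each held one in the wider search of the next paragraph, within 50 bases of a listed start.

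Of the 82 members, 61 had an entry in the RefSeq promoter table. A run of at least 8 C or T bases within 50 bases of a listed start was present in 52 of them (85.2%), against 39.3% of the 27025 genes in the table. The letters CGGAAG, the core of sites for ETS family factors, were found on either strand from 250 bases before to 50 bases after the start in 41 members (67.2%), against 18.8% of all genes. The letters ATGGCG were present in 19 members (31.1%) against 10.2%, and TATAAA in 8 (13.1%) against 15.7%. A gene with several listed starts was counted once if any window held the letters, and a match is a description of the sequence only. In GENCODE vM21 the members lay on 19 chromosomes, 14 of them on chromosome 7 and 4 on chromosome X. For 80 the annotation was protein coding, and for Rpl32l and Rpl6l it was processed pseudogene. The GC content of their transcripts ranged from 39.0% for Rpl22l1 to 60.8%, with a median of 52.0%.

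Ribosomal protein mRNAs were among the most abundant of these cells. Over the mean of all 6 libraries, members made up 20 of the 50 genes with the highest TPM, 32 of the first 100 and 71 of the first 500. Their mean level ran from 9.49 to 6616 TPM with a median of 794 TPM, and 35 members were above 1000 TPM. The median was 682 TPM for the large and 1041 TPM for the small subunit. The highest was Rplp1, an acidic stalk protein, with 6621 and 6130 TPM in the vehicle libraries, 6577 and 6978 TPM with MASM7 and 6710 and 6681 TPM with MFI8. Rpl8, a core protein of the large subunit, followed at a mean of 5272 TPM, below Rplp1 in all 6 libraries and without overlap of the ranges. The range of Rps15 (4843 TPM) overlapped those of Rpl8 and of the stalk base Rplp0 (4807 TPM), so that its place was not resolved, whereas Rpl8 lay above Rplp0 without overlap, and Rpl4 (3789 TPM) and Rps2 (3357 TPM) each lay below the gene before without overlap.

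At the other end were Rpl6l (9.49 TPM), Rpl32l (12.0 TPM) and Rps10 (42.7 TPM), followed by Rpl36al (53.4 TPM), Rpl24 (57.7 TPM) and Rpl13a (129 TPM). Rps10, a small subunit protein, had 43.4, 42.2, 44.7, 44.6, 42.9 and 38.3 TPM in the 2 vehicle, 2 MASM7 and 2 MFI8 libraries, 113-fold less than Rps15 on average. Of the members, 62 had at least 1 pseudogene in the table under their own name, and the 4 of Rps10 held 376.5 counts per library on average. How reads that match several copies were counted is not given in the sources used here, so the levels of these members are uncertain.

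**Figure D1:**
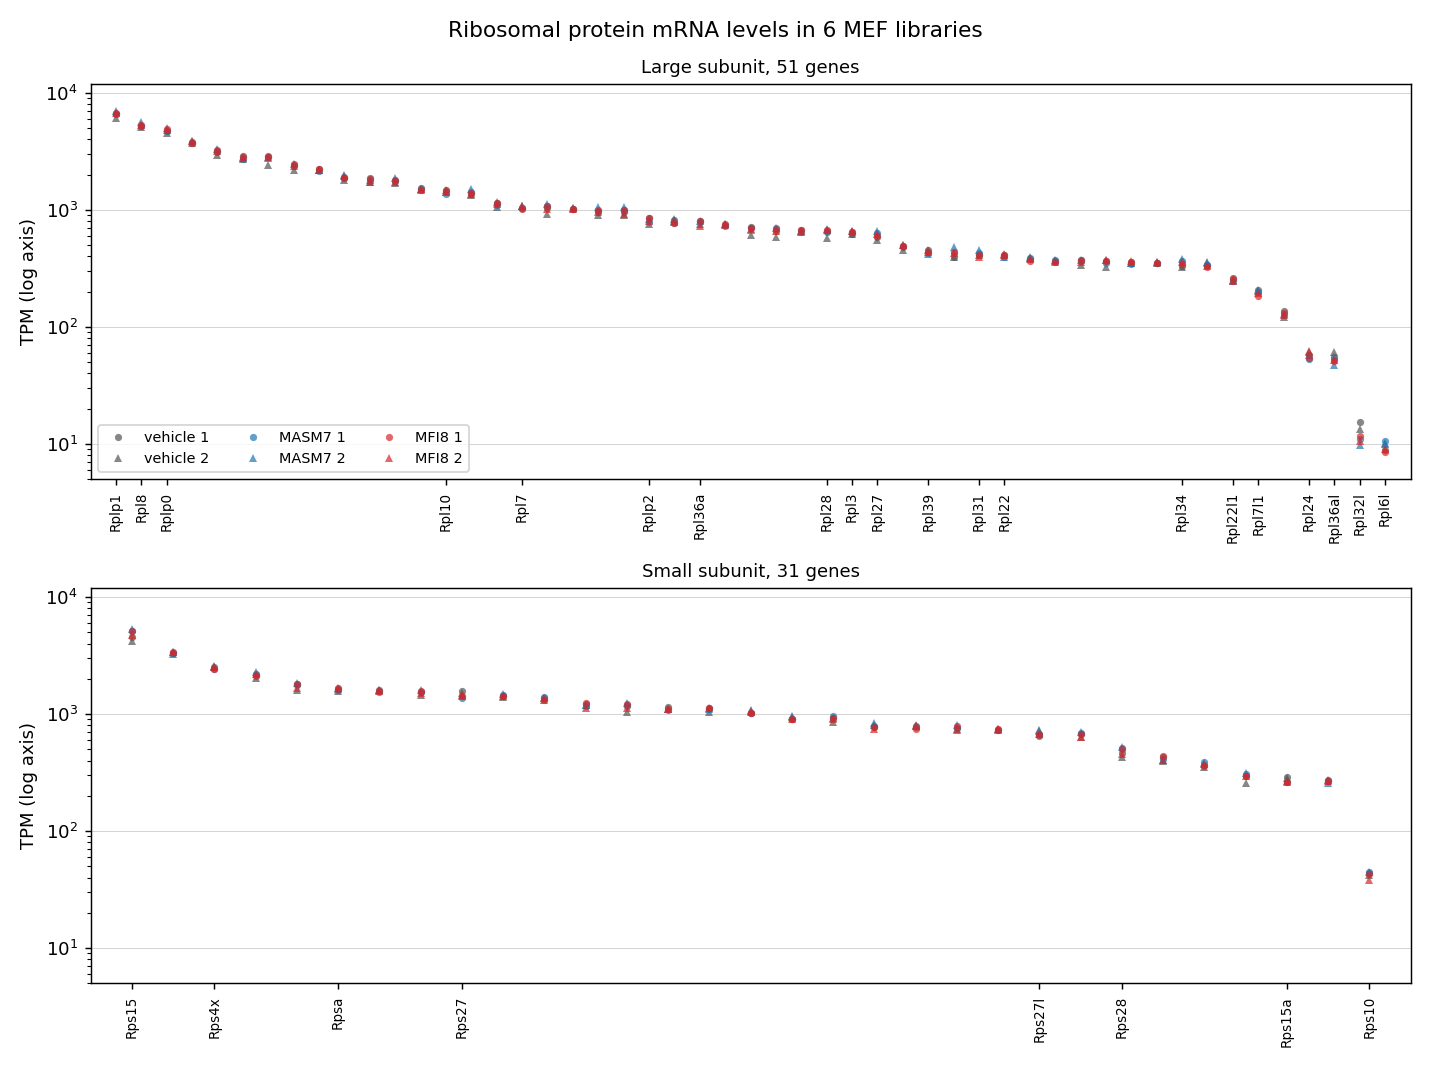
Level of each of the 82 members in TPM (log axis) in the 6 libraries, ordered by the mean within each subunit, with the genes of the naming rule labelled; colour gives the group and the marker shape the replicate. The libraries lie close together for nearly every gene, and the levels run from 9.49 TPM for Rpl6l to 6616 TPM for Rplp1.

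Summed over all members, the share of counts was 4.59% and 4.41% in the vehicle libraries, 4.56% and 4.74% with MASM7 and 4.55% and 4.51% with MFI8. The group means were 4.50% ± 0.127 (SD, n = 2), 4.65% ± 0.126 (n = 2) and 4.53% ± 0.0302 (n = 2), so that the differences between groups were of the size of the spread within vehicle and within MASM7. The 95% Wilson interval of the first vehicle library was 4.58% to 4.60%, which covers counting error only. In TPM the members took 10.05% and 9.61%, 10.03% and 10.4%, and 10.1% and 9.998%. The 2 vehicle libraries stood apart from each other for these genes. Vehicle replicate 2 was the lowest of the 6 libraries for 43 of the 82 members and MASM7 replicate 2 the highest for 49. Replicate 2 minus replicate 1 had a median of −0.061 (log2) over the members in vehicle, where 12 were higher in replicate 2, of 0.048 in MASM7, where 69 were higher, and of −0.0065 in MFI8, where 36 were higher. Over the 14290 genes tested these medians were −0.00047, 0.0055 and 0.0027. Each comparison with vehicle is therefore also given without vehicle replicate 1 or 2.

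**Figure D2:**
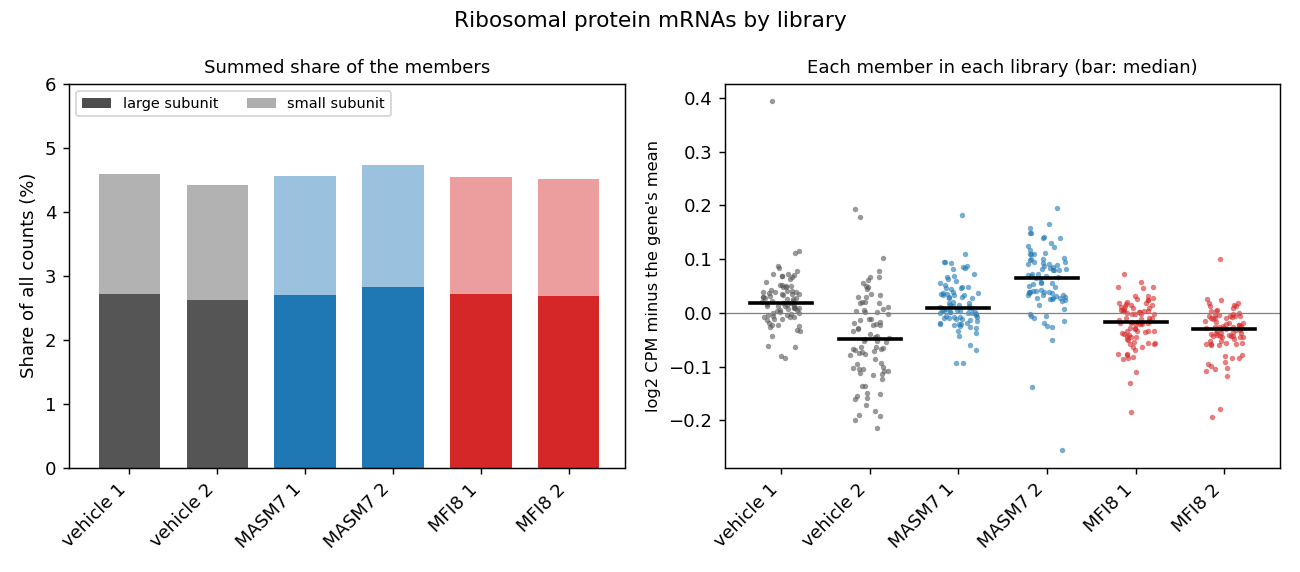
Left, share of all counts (%) taken by the large and small subunit genes in each library; right, log2 CPM of each member minus its mean over the 6 libraries, with the median as a bar. The shares lie between 4.41% and 4.74%, and the points of vehicle replicate 2 sit lowest and those of MASM7 replicate 2 highest.

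With MASM7, 59 of the 82 members were higher and 23 lower than with vehicle, by a median of 0.055 on the log2 scale, against 0.00067 over all genes tested, of which 50.1% were higher. None passed an adjusted p of 0.05 in the quasi-likelihood test of edgeR after Benjamini-Hochberg adjustment (0 of 82, background 0.0% of 14290 genes; smallest adjusted p = 0.466). At an unadjusted p under 0.05 there were 13 members higher, where the background was 5.32% of all genes, and 2 lower, where it was 4.88% (10.2% in both directions). Both MASM7 libraries lay above both vehicle libraries for 36 members (background 21.2%) and below for 9 (background 21.6%). DESeq2 called 0 members (background 0.00747%). With the replicate number as a block, edgeR called 9 members, all higher (background 3.88%), and with a gene length and GC offset added to the block 7, of which 6 were higher (background 1.46%). With no filter beyond 1 count it called 5, all higher (background 0.475% of 26760 genes). The median was 0.015 without vehicle replicate 2, with 49 members higher, and 0.096 without vehicle replicate 1, with 68 higher. It was −0.00061 between the replicate 1 libraries alone, with 40 higher, and 0.11 between the replicate 2 libraries alone, with 69 higher. For 1 gene, the smallest two-sided p that an exact permutation of 2 libraries against 2 allows is 0.333.

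Rps15, a small subunit protein near the decoding site (ENSMUSG00000063457.14, GRCm38 chromosome 10, 80292453 to 80294114, plus strand), had the smallest p. Its level was 821 and 739.8 CPM (counts scaled to library size, with no correction for gene length) with vehicle and 917 and 963 CPM with MASM7, and the groups did not overlap. The log2 fold change was 0.27 ± 0.065 (SE), or 20.4%, and did not pass (edgeR quasi-likelihood adjusted p = 0.466). It passed with the replicate number as a block (edgeR adjusted p = 0.0028) and with no filter beyond 1 count (edgeR adjusted p = 2.6e-05), and also with the block and the gene length and GC offset (edgeR adjusted p = 0.0015), but under no other alternative with a test. Rps28, which lies at the mRNA exit of the small subunit, had 229 and 209 CPM against 252 and 261 CPM, a log2 difference of 0.23 ± 0.064. Rps19, whose human counterpart is mutated in Diamond-Blackfan anaemia, had 394 and 339 CPM against 413 and 419.8 CPM, and its log2 difference of 0.18 ± 0.068 was 0.067 between the replicate 1 libraries and 0.31 between the replicate 2 libraries. Rps13 had 279 and 269 CPM against 299.6 and 298 CPM. With the replicate number as a block, Rps28 and Rps19 passed (edgeR adjusted p = 0.0091 and 0.0319). With the gene length and GC offset added to the block, Rps28 and Rps13 passed (edgeR adjusted p = 0.0133 and 0.0331).

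The large subunit members with an unadjusted p under 0.05 included Rpl34, Rpl27, Rpl29, Rpl10a, Rpl13, Rpl26, Rpl28 and Rpl35, all higher with MASM7 by 0.13 to 0.22 on the log2 scale. Between the replicate 1 libraries Rpl26, Rpl28 and Rpl35 were at 0.061, 0.044 and 0.042, and between the replicate 2 libraries at 0.20, 0.28 and 0.25. With libraries left out, their lowest values were 0.080, 0.071 and 0.082. Rpl34 had 251 and 243 CPM with vehicle and 278 and 289.7 CPM with MASM7, and its log2 difference of 0.20 ± 0.051 was 0.14 between the replicate 1 and 0.25 between the replicate 2 libraries. Rpl27 had 255 and 237 CPM against 276 and 291 CPM, a difference of 0.21 ± 0.056. In both genes each MASM7 library was above each vehicle library, yet the differences between the replicate 2 libraries were larger than those between the replicate 1 libraries. Rpl29 and Rpl10a showed differences of 0.22 and 0.19, which were 0.12 and 0.084 between the replicate 1 libraries and 0.32 and 0.30 between the replicate 2 libraries. These members, Rps19 and Rps13 were singled out after their values were seen. With the replicate number as a block, Rpl34, Rpl27, Rpl29, Rpl10a and Rpl13 passed (edgeR adjusted p = 0.0128, 0.0135, 0.0150, 0.0226 and 0.0474). With the gene length and GC offset added, Rpl34 and Rpl27 still did (edgeR adjusted p = 0.0247 and 0.0303).

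The 2 members lower with MASM7 at an unadjusted p under 0.05 belonged to the small subunit. Rps15a (ENSMUSG00000008683.16, GRCm38 chromosome 7, 118104372 to 118116188, minus strand) had 519.7 and 504 CPM with vehicle and 469 and 473 CPM with MASM7, a log2 difference of −0.12 ± 0.047 (edgeR quasi-likelihood adjusted p = 0.477). Rps27, a zinc-binding protein of the small subunit (ENSMUSG00000090733.6, chromosome 3, 90212522 to 90213651, minus strand), had 469 and 448 CPM against 413 and 428 CPM, a difference of −0.13 ± 0.050 with the same adjusted p, which was 0.0200 in edgeR with the block and the gene length and GC offset. Rps15 and Rps15a, which share a name but are separate proteins, thus lay on opposite sides of vehicle with MASM7. The lowest value of all was that of Rpl32l, at −0.46 ± 0.26, which rests on 40, 38, 37 and 34 counts.

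With MFI8, 34 members were higher and 48 lower than with vehicle, where 50.7% of all genes tested were higher, and the median of −0.011 was close to their 0.0027. Again none passed the adjusted threshold in edgeR (0 of 82, background 0.0% of 14290 genes; smallest adjusted p = 0.398), DESeq2 called 0 (background 0.406%), and edgeR with the replicate number as a block called 1, Rps15a, lower (background 5.04%). The block with the gene length and GC offset called 4, of which 2 were higher and 2 lower (background 4.51%), and the fit with no filter beyond 1 count called 0 (background 0.957%). At an unadjusted p under 0.05 there were 1 member higher (background 5.21%) and 3 lower (background 4.65%), or 4 of 82 against a background of 9.86% in both directions. Both MFI8 libraries lay above both vehicle libraries for 6 members (background 20.9%) and below for 24 (background 19.3%). The direction depended on the library and the scale. The median was 0.023 with 51 members higher without vehicle replicate 1, and −0.045 with 9 higher without vehicle replicate 2. On the log2(TPM + 1) scale in limma it was 0.016 with 51 higher, and with library size alone as the scaling 41 were higher and 41 lower.

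The 4 members with an unadjusted p under 0.05 included 3 already met with MASM7. Rps15a had 459 and 465 CPM with MFI8, below both vehicle libraries, by a log2 difference of −0.15 ± 0.047 (edgeR quasi-likelihood adjusted p = 0.398). Rps27 had 417 and 426 CPM, also below both vehicle libraries, by −0.12 ± 0.050 (adjusted p = 0.464 in edgeR). Rps15 had 903 and 825 CPM, above both vehicle libraries but with the lower MFI8 library only just above the higher vehicle library of 821 CPM, a difference of 0.15 ± 0.065 (adjusted p = 0.505 in edgeR, but 0.0064 with the block and the gene length and GC offset). The difference of Rps15 was 0.074 without vehicle replicate 2 and 0.083 without MFI8 replicate 1, and 0.23 without vehicle replicate 1. The comparisons with MASM7 and with MFI8 share the vehicle libraries, so that like values in both are not independent of each other. Rpl7l1, a paralog of the large subunit protein Rpl7, had 205 and 199.8 CPM with vehicle and 179 and 188 CPM with MFI8, a difference of −0.14 ± 0.053 (adjusted p = 0.428 in edgeR, but 0.0128 with the block and that offset), while its 198 and 206 CPM with MASM7 surrounded the vehicle values. Among those higher, Rpl28 came next after Rps15 with a difference of 0.11 ± 0.063, of which 0.019 remained between the replicate 1 libraries.

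**Figure D3:**
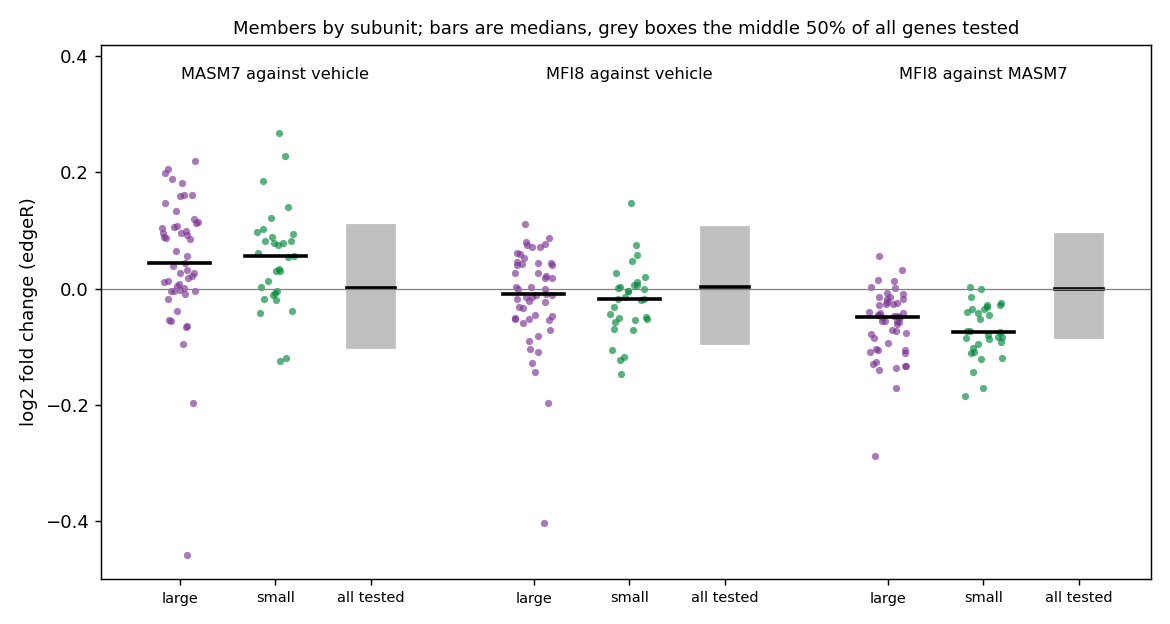
log2 fold change from edgeR of each member in the 3 comparisons, split into the 51 large and 31 small subunit genes; bars are medians and grey boxes the middle 50% of the 14290 genes tested. With MASM7 both subunits have medians just above 0 (0.044 and 0.055), and between MFI8 and MASM7 most points lie below 0.

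Between the compounds, 75 of the 82 members were lower with MFI8 than with MASM7 and 7 higher, with a median of −0.055 against −0.0015 over all genes tested, of which 49.5% were higher. None passed the adjusted threshold in edgeR (0 of 82, background 0.0% of 14290 genes; smallest adjusted p = 0.569), and 0 were called by DESeq2 (background 0.231%). With the replicate number as a block, edgeR called 2, both lower (background 3.07%), and with the gene length and GC offset added 5, all lower (background 5.16%). With no filter beyond 1 count it called 0 (background 0.628%). At an unadjusted p under 0.05 there were 10 members lower (background 2.95%) and 0 higher (background 4.23%), where 7.18% of all genes passed in either direction. Both MFI8 libraries lay below both MASM7 libraries for 51 members and above for 0, where the background was 19.6% in each direction. The median was −0.031 without MASM7 replicate 2 and −0.077 without MASM7 replicate 1, and in limma on log2(TPM + 1) it was −0.012 with 51 members lower and 31 higher. Rpl31, at the tunnel exit of the large subunit, had 204 and 218 CPM with MASM7 and 191 and 184 CPM with MFI8, a log2 difference of −0.17 ± 0.054. Its vehicle libraries, at 196 and 194 CPM, lay between the compounds. Rps28 had 238 and 217 CPM with MFI8, a difference of −0.17 ± 0.064 from MASM7, and Rpl34 had 255 and 261 CPM, a difference of −0.14 ± 0.051. Rps10 differed by −0.18 ± 0.081, with 29.5 and 29.6 CPM against 27.5 and 24.6 CPM. Without MFI8 replicate 2 the differences were −0.10 for Rps10 and −0.11 for Rps28.

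The subunits had medians of the same sign in each comparison. With MASM7 the median log2 fold change was 0.044 for the large subunit genes, 37 of 51 higher, and 0.055 for those of the small subunit, 22 of 31 higher. With MFI8 the medians were −0.0094, with 23 higher, and −0.017, with 11 higher, and between MFI8 and MASM7 they were −0.049 and −0.076, with 6 and 1 higher. The sign with MFI8 depended on the library. The large and small subunit medians against vehicle were −0.041 and −0.045 between the replicate 1 libraries, and 0.026 and 0.013 between the replicate 2 libraries. The summed counts of the large subunit were 1.455 and 1.457 times those of the small subunit with vehicle, 1.458 and 1.480 times with MASM7, and 1.473 times in both MFI8 libraries. In summed TPM the ratio was 1.659 and 1.650, 1.650 and 1.663, and 1.670 and 1.676. The MFI8 libraries thus lay above the vehicle libraries in both units, and on counts MASM7 replicate 2 was higher still. No test of a sum over members was made.

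The stalk genes, which form the arm that binds elongation factors, did not differ beyond the test's threshold. Rplp0 had 2229.8 and 2138 CPM with vehicle, 2257 and 2388 CPM with MASM7 and 2268 and 2226 CPM with MFI8, with log2 differences from vehicle of 0.088 ± 0.049 and 0.041 ± 0.049. Rplp1 had 941 and 859.9 CPM, 937 and 999 CPM, and 930.2 and 926 CPM, so that vehicle replicate 1 lay above 1 MASM7 and both MFI8 libraries. Rplp2 had 502 and 443 CPM with vehicle, a range that held all 4 treated libraries. Rpsa, also known as the laminin receptor, had 1503 and 1417 CPM with vehicle, 1449.7 and 1497 CPM with MASM7 and 1432 and 1458 CPM with MFI8, and its differences from vehicle were 0.013 ± 0.049 and −0.015 ± 0.049. With an offset for gene length and GC content the direction turned for Rplp0 (−0.044 with MASM7 and −0.033 with MFI8), for Rplp2 (−0.058 and −0.030, against 0.033 and 0.019 without it) and for Rpsa with MASM7 (−0.063). Rpsa with MFI8 was at −0.064 under it. With libraries left out, the differences of Rpsa ran from −0.028 to 0.056 with MASM7 and from −0.056 to 0.030 with MFI8. Those of Rplp0 with MFI8 ran from 0.011 to 0.073.

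Of the 11 paralog pairs examined, 6 had both genes above the count minimum. The share of the paralog in the counts of its pair was highest for Rpl22l1, with 30.2% and 28.8% in vehicle, 29.9% and 29.8% in MASM7 and 30.0% and 29.2% in MFI8, so that the compound libraries lay within the vehicle range. Rps27l, a p53 target gene, took 25.2% and 27.4%, 26.8% and 28.1%, and 26.4% and 26.3% of the pair with Rps27, again with overlap. Rps27 and Rps27l are encoded on different chromosomes, 3 and 9, and in TPM the share of Rps27l was 31.3% ± 1.73 with vehicle (SD, n = 2). Rpl7l1 took 20.6% and 19.7% in vehicle and 19.8% and 19.9% in MASM7, but 18.9% and 18.8% in MFI8. The MFI8 values lay below those of all other libraries, with 95% counting intervals of 18.4% to 19.4% and 18.4% to 19.3% against 20.1% to 21.2% and 19.2% to 20.2% in vehicle. Rpl36al, the paralog of Rpl36a, took 5.34% and 6.20% in vehicle, 5.17% and 4.60% in MASM7 and 4.998% and 5.51% in MFI8. Its own level was 21.3 and 23.3 CPM with vehicle, 20.4 and 18.5 CPM with MASM7 and 19.3 and 19.6 CPM with MFI8, below both vehicle libraries in all 4 treated libraries, with log2 differences of −0.20 ± 0.091 and −0.20 ± 0.092. With MASM7 the difference was −0.061 between the replicate 1 and −0.33 between the replicate 2 libraries. It was −0.13 for each compound without vehicle replicate 2, and for MASM7 also without MASM7 replicate 2. The partner Rpl36a, on chromosome X, had 378 and 351.5 CPM, 375 and 383 CPM, and 367 and 336 CPM. The other expressed copies, both annotated as processed pseudogenes, rest on few counts. Rpl32l took 0.223% and 0.205% of its pair with Rpl32 in vehicle, 0.167% and 0.143% in MASM7 and 0.171% and 0.156% in MFI8, without overlap with vehicle, though the 95% counting intervals of 0.149% to 0.281% in vehicle replicate 2 and 0.120% to 0.244% in MFI8 replicate 1 overlapped. Rpl6l took 0.307% to 0.400% of the pair with Rpl6, where MFI8 overlapped with vehicle and both MASM7 libraries (0.400% and 0.371%) lay above it, all within overlapping counting intervals.

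**Figure D4:**
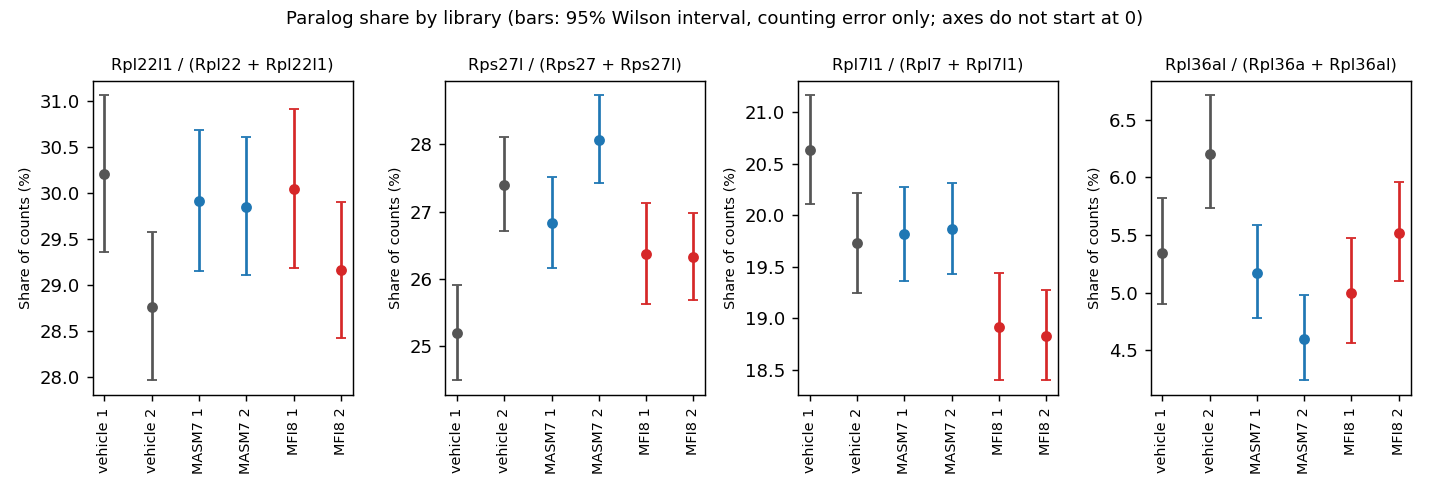
Share of the paralog in the summed counts of its pair (%) in each library, with 95% Wilson intervals for counting error. For Rpl7l1 the MFI8 libraries (18.9% and 18.8%) lie lowest, for Rpl36al the MASM7 libraries (5.17% and 4.60%) lie below both vehicle libraries, and for Rpl22l1 and Rps27l both compounds overlap with vehicle.

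The remaining paralogs were at or near 0. Rpl10l and Rpl39l, known mostly from testis, and Rps4l had 0 counts in every library. With 3 counts as the limit that 0 allows, the share of the pair was at most 0.0158% for Rpl10l, 0.0746% for Rpl39l and 0.0120% for Rps4l in the library with the highest limit. Rpl3l, the form of Rpl3 known from striated muscle, took 0.0058% to 0.0168% of its pair, and Rps12l1 0.0046% to 0.0389%. Their partners were measured well and without a called difference. Rpl10 had 863 and 852 CPM with vehicle, 809 and 841 CPM with MASM7 and 825 and 808 CPM with MFI8, below both vehicle libraries in all 4 treated libraries. Rpl39, a protein of the exit tunnel, had 186 and 184 CPM, 175 and 172 CPM, and 175 and 175 CPM. Rps4x had 1175.3 CPM in both vehicle libraries, 1136 and 1183 CPM with MASM7, and 1091 and 1146 CPM with MFI8, where both lay below vehicle. Rpl3 had 560.3 and 553 CPM with vehicle, 585 and 596 CPM with MASM7, and 569.6 and 579 CPM with MFI8, above both vehicle libraries in all 4 treated libraries. Rpl22 and Rpl7, the partners of 2 expressed paralogs, differed from vehicle by at most 0.066 on the log2 scale.

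Members with a higher GC content had higher log2 fold changes against vehicle. Over the 82 members, Pearson's r between GC content and the log2 fold change was 0.43 with MASM7 and 0.44 with MFI8 (Spearman's rho 0.55 and 0.56), and −0.20 between MFI8 and MASM7; members are not independent replicates and share the vehicle libraries. Over the tested genes with a GC value (n = 13989) r was 0.27, 0.17 and −0.093 (Spearman's rho 0.45, 0.30 and −0.15). Between the vehicle replicates, replicate 2 minus replicate 1, r was −0.51 over the members and −0.17 over the tested genes with a GC value. Of the third of the members with the lowest GC content (39.0% to 49.4%), 12 of 27 were higher with MASM7 at a median of −0.0046, and of the third with the highest (54.0% to 60.8%), 26 of 27 were higher at a median of 0.097. With MFI8, 3 of 27 and 20 of 27 were higher in these sets, with medians of −0.049 and 0.026. Rps15, the member with the smallest p in the MASM7 comparison, has a GC content of 60.1%, and Rps15a, which was lower, 46.4%. With an offset per library for gene length and GC content, the medians were 0.025 for MASM7, with 51 higher, −0.015 for MFI8 and −0.035 between the compounds. Under that offset the log2 difference with MASM7 was 0.22 for Rps15, 0.17 for Rps28, 0.15 for Rpl27 and 0.14 for both Rpl34 and Rps13. For Rps27 it was −0.16, but for Rpl10a 0.062 and for Rps15a −0.062. It was 0.13 for Rpl29, 0.098 for Rps19, 0.074 for Rpl13, 0.086 for Rpl26, 0.068 for Rpl28 and 0.047 for Rpl35, and all of these but Rpl29 then had an unadjusted p above 0.05. With MFI8 the values under the offset were 0.065 for Rpl28, 0.16 for Rps15, −0.13 for Rps15a, −0.11 for Rps27 and −0.15 for Rpl7l1. The part of GC content in the differences of single members was not tested beyond this offset.

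**Figure D5:**
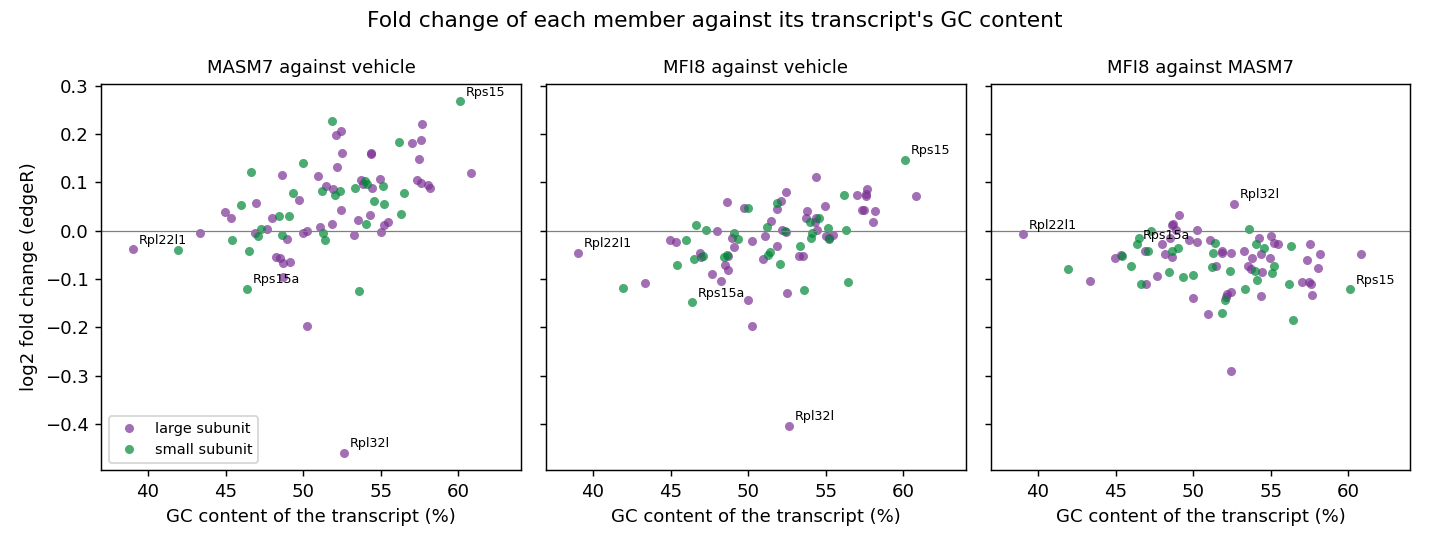
log2 fold change from edgeR of each member against the GC content of its transcript (%), for the 3 comparisons and coloured by subunit. The points run upward with GC content in both comparisons with vehicle (r = 0.43 and 0.44) and slightly downward between MFI8 and MASM7 (r = −0.20).

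Ribosome genes whose symbols the pattern misses were fitted in the same model. Fau, the precursor of Rps30, had 414 and 351 CPM with vehicle, 431 and 436 CPM with MASM7 and 432 and 396 CPM with MFI8, and it passed for MASM7 with the replicate number as a block (edgeR adjusted p = 0.0319) but not with the block and the gene length and GC offset. Its log2 difference with MASM7 was 0.18, against 0.10 under that offset, 0.064 without vehicle replicate 2 and 0.30 without vehicle replicate 1. Rps3a1 differed from vehicle by −0.021 ± 0.053 with MASM7 and −0.089 ± 0.053 with MFI8, and Rack1, the signalling scaffold of the small subunit, by 0.087 ± 0.047 and 0.012 ± 0.047. Under the offset the values with MFI8 were −0.011 for Rps3a1 and −0.0072 for Rack1, and Rps3a1 with MASM7 was at 0.031. Without vehicle replicate 2 and without vehicle replicate 1, Rps3a1 with MFI8 was at −0.039 and −0.13. The other lists of the translation machinery were described by the same counts. Of 23 other mRNAs with a known TOP tract, those genes included, 9 were higher with MASM7 at a median of −0.0015, and 6 with MFI8 at a median of −0.050. Of the 77 mitochondrial ribosomal protein genes tested, 53 were higher with MASM7 (median 0.033) and 30 with MFI8 (median −0.012). Of 38 genes of ribosome biogenesis, 27 were higher with MASM7 (median 0.085). At an unadjusted p under 0.05 the higher genes with MASM7 were 2 of the 23, 8 of the 77 and 13 of the 38 (background 5.32%), and none of the 3 lists had a lower one. Between MFI8 and MASM7 the medians of these 3 lists were −0.048, −0.059 and −0.10, with 1, 7 and 10 genes lower at an unadjusted p under 0.05 (background 2.95%). The adjusted threshold was passed by 0 genes of these lists in edgeR without the block, and by 0 of all 14290 genes. At an unadjusted p under 0.05 the lists had 4, 3 and 3 lower genes with MFI8 (background 4.65%). The higher ones were 0, 1 and 0 (background 5.21%), which makes 4, 4 and 3 in both directions (background 9.86%). With the replicate number as a block, edgeR called 1, 3 and 7 genes of the lists for MASM7, all higher (background 3.88%), 2, 0 and 1 for MFI8, all lower (background 5.04%), and 0, 0 and 4 for MFI8 against MASM7, all lower (background 3.07%).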

How the data were processed

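RNA-seq of 6 MEF libraries in 3 groups was analysed, with groups and replicate numbers taken from the sample labels. Reads had been trimmed (Trimmomatic) and mapped with STAR against GRCm38, and the raw counts deposited per gene came from featureCounts on exons. The deposited TPM values are scaled by gene length and library by the authors. The annotation, strand setting and treatment of multimapping reads are not given in the sources used here, and the authors' normalized counts were not used.

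The raw counts entered an edgeR model (4.0.16, R 4.3.3) that used TMM factors, filterByExpr (14290 genes) and 1 coefficient per group over all 6 libraries. The two-sided quasi-likelihood F test was adjusted by Benjamini-Hochberg over all genes tested, at 0.05. The SE of a log2 fold change was its size over √F. CPM used TMM library sizes. The fit was tested on simulated data. Members and gene lists were chosen with earlier results of these data known. Named genes were the paralog pairs, the stalk genes and Rpsa, the 3 members with the smallest p in each direction of each comparison, the 3 highest and 3 lowest by TPM, and ribosome genes outside the pattern. Some single genes are not reported here. GC content came from GENCODE vM21 and start sequences from RefSeq on GRCm38.p6. Alternatives were DESeq2 1.42.0, limma 3.58.1 on log2(TPM + 1), other scalings and filters, a gene length offset by lowess with a span of 0.3, the 2 compared groups alone, a replicate block, and each library left out. Added after seeing the data were the GC and length offset, with and without the block, and each replicate number alone.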

Additional observations from a re-analysis of the deposited data

How the results depend on the processing

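The count of 0 members called in edgeR held with each library left out (0 to 0 in each comparison), with DESeq2 size factors, with library size alone, with a minimum of 10 counts in every library, with the gene length offset, with and without GC content, with only the 2 compared groups, in limma on log2(TPM + 1) and in DESeq2, which called 49, 2 and 29 genes in all for MFI8, MASM7 and MFI8 against MASM7. With no filter beyond 1 count, 5 members were called for MASM7, all higher (0.475% of all genes). The labels name no animal, batch or day that same-numbered libraries share, and call the replicates independent, so the number was no term of the reported model. Deviations of same-numbered libraries correlated at 0.188, 0.152 and 0.165 over all genes tested (vehicle with MASM7, vehicle with MFI8 and MASM7 with MFI8), and at 0.069, 0.519 and 0.134 over the members. With the replicate number as a block, 1 member was called for MFI8 (Rps15a, lower), 9 for MASM7 (among them Rpl10a, Rpl13, Rpl27, Rpl29, Rpl34, Rps15, Rps19 and Rps28, all 9 higher) and 2 for MFI8 against MASM7 (Rpl31 and Rps28, lower), where 5.04%, 3.88% and 3.07% of all genes were called. The block with the gene length and GC offset called 4 for MFI8 (2 higher, 2 lower), 7 for MASM7 (6 higher, 1 lower) and 5 for MFI8 against MASM7 (all lower), where 4.51%, 1.46% and 5.16% of all genes were called. The cause of these differences was not tested.

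With libraries left out, the median log2 fold change ranged from −0.045 to 0.023 for MFI8, 0.015 to 0.096 for MASM7 and −0.077 to −0.031 for MFI8 against MASM7, and in limma on log2(TPM + 1) the last was −0.012. Large minus small subunit, the difference of medians was 0.0079 for MFI8 (0.0049 to 0.031 with libraries left out, the highest without MFI8 replicate 2, 0.022 with the length offset), −0.011 for MASM7 (−0.012 to 0.037, above 0 without vehicle replicate 1 or MASM7 replicate 1, 0.0082 with the GC and length offset, 0.0085 with the block added to it, and 0.027 between the replicate 2 libraries alone) and 0.027 for MFI8 against MASM7 (0.0038 to 0.031). Leaving out MASM7 replicate 2, MFI8 replicate 1 or MFI8 replicate 2 gave 0.0056, 0.0066 and 0.0038 for the last. The same difference was 0.031 with the GC and length offset, 0.030 with the block added to it, 0.0066 between the replicate 1 libraries and 0.010 between the replicate 2 libraries. With 2 libraries a group, a median SE of 0.0526 to 0.0527 limits what could be called among the members.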

Other observations

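Most pseudogenes of ribosomal proteins that were tested had lower values with either compound than with vehicle. Of 319 pseudogenes listed in the table under a ribosomal protein name with a ps suffix, 267 had a count in some library and 138 were tested. With MASM7, 116 of the 138 were lower than with vehicle, at a median log2 fold change of −0.30, and with MFI8, 113 were lower, at −0.30, while 0 passed the adjusted threshold in edgeR's quasi-likelihood test. With the replicate number as a block, 6 of the 138 were called with MASM7, all lower, where 3.88% of all genes were called, and 9 with MFI8, 8 of them lower, where 5.04% were, both near the share over all genes. At an unadjusted p under 0.05 there were 17 lower and 1 higher with MASM7 (4.88% and 5.32% of all genes), and 16 lower and 3 higher with MFI8 (4.65% and 5.21% of all genes). Their summed share of counts was 0.0709% and 0.0742% in the vehicle libraries, 0.0618% and 0.0633% in those of MASM7 and 0.0702% and 0.0573% in those of MFI8. The lowest shares were in the libraries with the most counts, both of MASM7 and MFI8 replicate 2 (29881032 to 30677751 counts). The vehicle libraries and MFI8 replicate 1 held 22791792 to 25068530 counts. Any part of library depth in these differences was not tested. The comparisons share the vehicle libraries. Between the replicate 1 libraries the MFI8 median was −0.029, and between the replicate 2 libraries −0.49. Whether these reads come from the copies or from the parent mRNAs was not tested.

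A few of these copies stood out in 1 library. Rps15-ps2 had 319 counts in vehicle replicate 1 and 48 to 67 in the others, and Rps25-ps1 had 272 in MFI8 replicate 1 and 78 to 110 in the others. Both were singled out after their values were seen.

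Rps27rt, a protein coding gene on chromosome 9 with an Rps27-like name, had 13.7 and 15.6 CPM in the vehicle libraries, 10.8 and 10.3 CPM under MASM7 and 12.5 and 9.98 CPM under MFI8. Its log2 differences from vehicle were −0.48 ± 0.13 with MASM7 and −0.39 ± 0.13 with MFI8, without passing the adjusted threshold (edgeR quasi-likelihood adjusted p = 0.466 and 0.412). With the replicate number as a block it passed in both (edgeR adjusted p = 0.0148 and 0.0346). Under the gene length and GC offset the differences were −0.31 and −0.20, and with MFI8 the difference was −0.13 between the replicate 1 libraries and −0.64 between the replicate 2 libraries. It was also chosen after its values were seen. The lowest CPM of Rps27rt were in the libraries with the most counts, both of MASM7 and MFI8 replicate 2 (29881032 to 30677751 counts). A part of library depth in its differences was not tested.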
